A study of Mus musculus with 37 samples.

Results

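The nuclear genes for subunits of the 5 respiratory chain complexes are followed here through the maturation of single mouse oocytes, from the germinal vesicle stage (GV) to metaphase I (MI) and metaphase II (MII). Members were chosen by name and gene type. They are the protein_coding genes of the deposited RSEM gene table whose mouse GENCODE symbol starts with Nduf, then a, b, c, s or v, then a number, is Sdha, Sdhb, Sdhc or Sdhd, or starts with Uqcr, with Cox and a number from 4 to 8, or with Atp5. The Ndufaf assembly factors are left out. The rule finds 85 of 21921 protein_coding genes, among 54752 genes in all: 37 of complex I, 4 of complex II, 8 of complex III, 18 of complex IV and 18 of complex V.

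The study sequenced RNA from 37 single oocytes by Smart-seq2, with reads of 150 bases from both ends, to follow transcripts and their 3′ ends through maturation. All oocytes came from C57BL/6 females of 6 to 8 weeks that were given 5 IU of PMSG. Batch A holds 6 GV and 6 MII oocytes, and batch B holds 10 GV and 15 MI oocytes. At 48 hours after PMSG, ovaries gave the GV oocytes. Females used for MII received 5 IU of hCG at that time. Their oocytes were recovered 15 hours later from the ampulla, so they matured in the animal. MI oocytes were GV oocytes kept for 8 hours in M16 medium, so they matured in culture. Zona and polar body were removed. MI and MII are never in the same batch, and each is compared only with the GV oocytes of its own batch.

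Oxidative phosphorylation runs in the inner mitochondrial membrane. Complexes I and II pass electrons to ubiquinone, complex III passes them on to cytochrome c, complex IV reduces oxygen, and complex V uses the proton gradient to make ATP. Complex II is wholly nuclear-encoded, and the other complexes mix nuclear subunits with a few encoded by the mitochondrial genome, in an oocyte that stops transcribing its nuclear genome before it matures and works from stored RNA.

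RSEM expected counts summed to between 7509875 and 12648629 per GV oocyte of batch A (median 10014033) and between 9930485 and 13988444 per MII oocyte (median 10509159.5). In batch B the GV oocytes had 7184205 to 17724506 (median 11548242). The MI oocytes had 2709280 to 19390128 (median 12840734), with MI oocyte 15 the lowest. In MII oocyte 1, 29816 genes had at least 1 count, where the rest of its group had 19574 to 22598, so this oocyte stands apart. In MI oocytes 4, 8 and 9 the HTSeq count was only 1.05 to 1.11 times the RSEM count of the median gene, against 1.97 to 2.17 in the other oocytes, so the tests of batch B, and of the difference between the changes, were run with and without them. Ranges over MI oocytes include them. A single ribosomal RNA-like gene, CT010467.1, took 7.24% to 21% of the counts in GV oocytes of batch A and 14.6% to 30% in MII oocytes. Its part in the differences between stages was not tested.

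The label of the cells was checked against markers. The 10 oocyte markers summed to medians of 11711 CPM (counts scaled to a sum of 1000000 per oocyte) in GV and 7201 CPM in MII oocytes of batch A. In batch B the medians were 4244 CPM in GV and 3756 CPM in MI oocytes. The sums of batch A did not overlap (9402 CPM or more in GV, 8781 or less in MII), and 9 of the 10 changes lay below zero (median log2 -0.60). Gdf9 had the most counts, at a mean of 2823 CPM in GV oocytes of batch A. None of the 10 was at 0 in any group. Between GV and MII 4 of these 10 were lower by the call described below (Zp1, Zp2, Zp3 and Ooep), and between GV and MI none was by edgeR, by DESeq2 or on HTSeq counts, with 2 lower at an unadjusted p under 0.05 by each. The 14 cumulus and granulosa markers summed to medians of 28.1 CPM in GV and 20.7 CPM in MII oocytes of batch A, and 21 CPM in GV and 16.0 CPM in MI oocytes of batch B. Most of that was Cyp19a1 (means of 16.1, 17.5, 15.9 and 13.7 CPM in the same order). Ptx3 was at 0 in GV oocytes of batch A, and Foxl2, Amh and Ptx3 were at 0 throughout batch B. Of these 14, 1 passed the filter in batch A and was not called, and 3 in batch B, of which Gja1 was called lower in MI. With HTSeq counts 6 passed in batch A, and Hsd3b1 and Cyp11a1 were called lower in MII, while 4 passed in batch B and 0 were called, with 2 lower at an unadjusted p under 0.05. Their part in the results below was not tested. The 8 blood and immune markers summed to medians of 0.814, 1.75, 5.205 and 3.31 CPM, with Cd68 the most abundant in batch A and Hbb-bs in batch B. None of the 8 passed the filter in batch A, and 2 did in batch B, with 0 called by edgeR or DESeq2 and 1 lower at an unadjusted p under 0.05.

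All CPM values, also those of the markers above, are scaled with TMM within a batch. They compare oocytes of the same batch and not oocytes of different batches. A gene is called when edgeR's quasi-likelihood test, fitted to all genes that pass a filter on low counts, gives an adjusted p (Benjamini-Hochberg) below 0.05 together with a fold above 2, the threshold that the study used. Log2 changes are MII minus GV or MI minus GV, with standard errors. Each replicate is 1 oocyte and the labels name no females, so the p-values measure the spread among oocytes and not among animals.

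Of the 85 members, 80 passed the filter in batch A and 78 in batch B. The 5 that failed in batch A are tissue isoforms of complex IV and a second gene entry named Atp5o. Cox7b2, Cox8b and the second Atp5o entry had 0 counts or nearly so, Cox7a1 did not pass 0.155 CPM in any oocyte of batch A, and Cox8c did not pass 0.495 CPM. Ndufa4l2 and Cox4i2, a paralog of Ndufa4 and a lung-type isoform of Cox4, failed in batch B too. Genes that match the names without being protein_coding are outside the rule. Ndufb1-ps had a mean of 408 counts and Ndufb4c of 132, and the others had means of 2.44 counts or fewer.

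Between GV and MII, 26 of the 80 members tested were called lower, against 6.32% of all 12929 genes tested, and 0 were called higher, against 2.15%. With the fold left aside, 39 were lower, against 11.5% of all genes, and 1 was higher (Sdha), against 9.06%. DESeq2 also called 26 lower and 0 higher, and edgeR on HTSeq counts called 19 lower and 0 higher. At an unadjusted p under 0.05, edgeR gave 57 lower, against 17.7% of all genes, and 2 higher, against 16.7%. The groups of oocytes did not overlap for 24 members lower in MII, against 5.71% of all genes, and for 1 member higher in MII (Atp5b), against 4.08%.

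The median log2 change of the members tested was -0.69, and that of all genes tested was 0.01. Below zero were 72 members and above zero 8, among them Sdha and Atp5b. With RLE size factors or DESeq2 the split was again 72 and 8, with HTSeq counts 67 and 13, and with spike-in size factors 80 and 0. Of all genes tested, 49.0% lay below zero by TMM, 47.7% with HTSeq counts and 93.7% with spike-in size factors. Of the 26 members called, 19 were called whichever single oocyte of batch A was left out, and 14 under every alternative tried. Without MII oocyte 1 the count was 24.

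These values are shares of the RNA counted in an oocyte. The ERCC spike-ins, with 44663 to 143062 counts per oocyte in batch A and 0 to 32 in batch B, add a scale per oocyte in batch A. Size factors from their totals moved the median of all genes to -0.72 and the median of the members to -1.42, a shift of nearly the same size, as a change of size factors moves all genes together. The distance between the medians, -0.71 by TMM, is therefore no separate result on the spike-in scale. On the spike-in scale 64 of 80 members were called lower, against 29.3% of all genes. Whether the spike-ins or the TMM scale follow RNA per oocyte more closely was not tested.

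**Figure D1:**
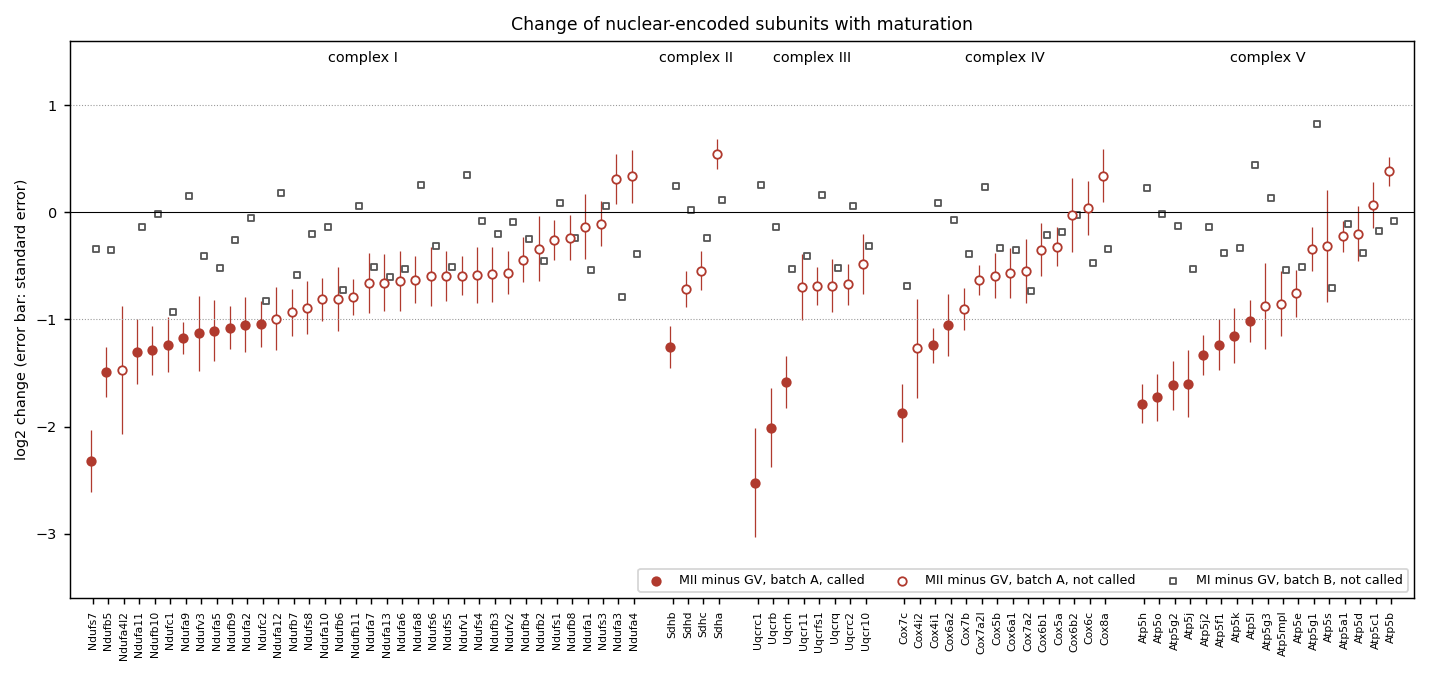
Log2 change of members tested in batch A, by complex and in order of the change (MII minus GV, circles with standard errors, filled where called), with the change of the same member in batch B (MI minus GV, squares). Of the members, 26 are called in batch A, all lower, and 0 in batch B; with spike-in size factors the circles above zero lie below zero.

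By complex, the members called lower between GV and MII were 11 of 37 in complex I (median log2 -0.66), 1 of 4 in complex II (-0.63), 3 of 8 in complex III (-0.69), 3 of 14 in complex IV (-0.58) and 8 of 17 in complex V (-0.87). Under spike-in size factors these medians were -1.41, -1.37, -1.44, -1.31 and -1.63, and under HTSeq counts -0.58, -0.58, -0.72, -0.46 and -0.55. Summed over all members, the CPM ran from 2910 to 4523 in GV oocytes of batch A (median 3590) and from 2043 to 3200 in MII oocytes (median 2491), so the sums overlap.

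Complex I is the entry point for electrons from NADH, with 7 nuclear core subunits that carry the flavin and iron-sulfur centers and a larger set of accessory subunits around them. Its summed CPM had a median of 1094 in GV oocytes (870 to 1399) and 684 in MII oocytes (504 to 932). Of the 7 core subunits 1 was called, with a median log2 of -0.56, and of the 30 other members 10 were called, with a median of -0.80.

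The core subunit called was Ndufs7 (ENSMUSG00000020153.14, chr10:80249121-80256794 on mm10), which holds the last iron-sulfur cluster before ubiquinone. It read 33.4, 45.9 and 76.2 CPM (lowest, median and highest) in GV oocytes and 5.38, 9.73 and 17.0 CPM in MII oocytes. Every MII oocyte lay below every GV oocyte, and the log2 change was -2.32 ± 0.29 (edgeR, adjusted p 5.82e-05). In 19 of 19 alternatives Ndufs7 was called, with log2 at -2.15 or lower. Ndufs8, the neighbouring iron-sulfur subunit, went from a median of 19.9 to 9.01 CPM with overlapping groups (log2 -0.89, edgeR adjusted p 0.018). Ndufv1, which binds NADH, went from 36.6 to 24.6 CPM, also with overlap (log2 -0.59, edgeR adjusted p 0.030). Ndufs1, Ndufs3 and Ndufv2 were not called and lay between -0.56 and -0.11, and Ndufs3 turned to 0.15 with HTSeq counts. Per length, the ratio of Ndufs1, the largest core subunit, to Ndufs7 was 0.104 to 0.301 in GV oocytes of batch A and 0.314 to 1.05 in MII oocytes, with no overlap. In batch B it was 0.157 to 1.33 in GV oocytes, which reach into both of these ranges, and 0.211 to 13.4 in MI oocytes.

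Among the accessory subunits, Ndufa9, which sits beside the ubiquinone site, read 53.5, 66.2 and 72.8 CPM in GV oocytes and 21.9, 28.0 and 38.3 CPM in MII oocytes. The groups did not overlap, and the log2 change was -1.17 ± 0.15 (edgeR, adjusted p 7.69e-05). Ndufb10 and Ndufb5, of the membrane arm, were lower without overlap as well (log2 -1.29 and -1.49), from medians of 22.8 to 9.34 CPM and of 46.8 to 15.3 CPM. The other accessory subunits called were Ndufa2, Ndufa5, Ndufa11, Ndufb9, Ndufc1, Ndufc2 and Ndufv3, with log2 from -1.04 down to -1.3. Of the 10, HTSeq counts also called Ndufa2, Ndufa9, Ndufa11, Ndufb5, Ndufb10 and Ndufc1. Ndufv3 was called in 5 of 12 fits that left out 1 oocyte, and not without GV oocyte 2, 4 or 5 or MII oocyte 1, 4, 5 or 6 (log2 -1.12 to -0.97). Ndufa2 was called in 7 of 12, and not without GV oocyte 4 or 5 or MII oocyte 1, 4 or 5 (-0.97 to -0.92). Ndufa5 (without MII oocyte 4 or 5), Ndufb9 (without GV oocyte 4 or MII oocyte 4) and Ndufc2 (without GV oocyte 5 or MII oocyte 4 or 5) were lost in fewer of these fits, where their changes lay below 2-fold (log2 -0.92 for Ndufc2 without GV oocyte 5). Ndufa2, Ndufb9, Ndufc1, Ndufc2 and Ndufv3 were not called in the fit of all 37 oocytes. Ndufb9 shares exon sequence with the overlapping gene Gm49356, and its counts are uncertain to that extent. Ndufa3 and Ndufa4 lay above zero without a call (0.31 and 0.34), and both lay below zero with spike-in size factors (-0.41 and -0.43). Ndufa4 is named for complex I and is assigned to complex IV in newer work.

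Ndufa8 is the member whose 3′ end the study followed by PCR. It read 44.2, 60.7 and 93.1 CPM in GV oocytes of batch A and 27.1, 43.0 and 54.6 CPM in MII oocytes. The groups overlap, and the change missed the threshold (log2 -0.63, edgeR adjusted p 0.055). In batch B it went from a median of 29.1 to 31.9 CPM (log2 0.25, edgeR adjusted p 0.805). The annotation gives it a single transcript, so expected counts cannot separate its 3′ ends.

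Complex II, succinate dehydrogenase, links the citric acid cycle to the chain and has 4 subunits, all of them members. Its summed CPM had a median of 362 in GV oocytes of batch A (299 to 411) and 361 in MII oocytes (336 to 398). Within that near-equal sum the subunits moved apart. The flavoprotein Sdha (ENSMUSG00000021577.14, chr13:74322254-74350280), where succinate is oxidized, read 124, 173 and 236 CPM in GV oocytes and 233, 256 and 265 CPM in MII oocytes. The groups overlap by the highest GV and the lowest MII oocytes. Its log2 change was 0.54 ± 0.14 (edgeR, adjusted p 0.013) and turned to -0.17 with spike-in size factors, with adjusted p from 0.0024 to 0.524 over its alternatives. The iron-sulfur subunit Sdhb (ENSMUSG00000009863.14, chr4:140961203-140979193) read 21, 28.6 and 44.2 CPM in GV oocytes and 9.97, 12.7 and 14.6 CPM in MII oocytes. Those groups do not overlap, the log2 change was -1.26 ± 0.20 (edgeR, adjusted p 0.000488), and 19 of 19 alternatives called it.

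The membrane anchors Sdhc and Sdhd, which hold the ubiquinone site, were lower by less than 2-fold (log2 -0.55 and -0.72, edgeR adjusted p 0.041 and 0.0069), from medians of 56.5 to 38.3 CPM and 94.6 to 58.7 CPM with overlapping groups. The ratio of Sdha to Sdhb per length, which no scaling between oocytes touches, was 1.3 to 4.42 in GV oocytes of batch A (median 3.09) and 8.95 to 13.1 in MII oocytes (median 9.57). In batch B the GV oocytes had 1.91 to 16.5 (median 7.79), and the MI oocytes 3.05 to 13.7 (median 6.20). So the ratio separates GV from MII in batch A and overlaps in batch B, where the GV oocytes alone reach into both ranges of batch A.

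Complex III passes electrons from ubiquinol to cytochrome c. Its summed CPM had a median of 304 in GV oocytes (244 to 434) and 174 in MII oocytes (135 to 268). All 8 members lay below zero by TMM, by HTSeq counts and by spike-ins, and 5 of 8 were lower at any fold. Uqcrh, the hinge protein at the cytochrome c side, read 36.0, 50 and 83.1 CPM in GV oocytes and 11.0, 17.9 and 26.7 CPM in MII oocytes. The groups do not overlap (log2 -1.58 ± 0.25, edgeR adjusted p 0.000412). Uqcrb, a small subunit near the ubiquinone sites, went from 5.03, 9.95 and 18.9 CPM to 1.51, 2.16 and 4.70 CPM, again without overlap (log2 -2.01 ± 0.37, edgeR adjusted p 0.0016). Uqcrc1, a core protein, was low from the start, at 3.09, 4.84 and 8.22 CPM in GV oocytes, and reached 0, 1.06 and 1.42 CPM in MII oocytes (log2 -2.52 ± 0.51, edgeR adjusted p 0.0028). Its partner core protein Uqcrc2 was the most abundant in reads, with 86.7, 125 and 171 CPM in GV oocytes and 63.0, 79.2 and 110 CPM in MII oocytes (log2 -0.67, edgeR adjusted p 0.020). Both core proteins are lower in MII, at very unequal levels: per length, Uqcrc2 stood at 138 ± 39.0 TPM (counts over transcript length, scaled to a sum of 1000000 per oocyte) and Uqcrc1 at 6.42 ± 2.93 TPM (mean and SD of 6 GV oocytes). The catalytic iron-sulfur subunit Uqcrfs1 was lower without overlap but by less than 2-fold (log2 -0.69, edgeR adjusted p 0.012).

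Complex IV reduces oxygen at a center held by mitochondrially encoded subunits, and its nuclear members surround that center. The summed CPM had a median of 740 in GV oocytes (529 to 942) and 512 in MII oocytes (375 to 747). Of 10 subunits found in all tissues 2 were called, with a median log2 of -0.56. Cox4i1, the largest nuclear subunit, where ATP binds and slows the enzyme, read 80.1, 99.1 and 138 CPM in GV oocytes and 35.2, 42.4 and 56.1 CPM in MII oocytes. The groups do not overlap, and the log2 change was -1.24 ± 0.17 (edgeR, adjusted p 0.000111), or -0.91 with HTSeq counts, which did not call it. The small membrane subunit Cox7c read 40.3, 63.9 and 101 CPM in GV oocytes and 10.8, 18.2 and 30.8 CPM in MII oocytes. Its groups do not overlap either (log2 -1.87 ± 0.27, edgeR adjusted p 0.000236), and it was called in 19 of 19 alternatives. Cox7b was lower without overlap by less than 2-fold (log2 -0.90), as was Cox7a2l (-0.63), which helps join complexes III and IV. Cox5a, Cox5b, Cox6a1, Cox6b1 and Cox7a2 lay between -0.59 and -0.32 without passing the test. Cox6c and Cox8a lay at 0.04 and 0.34, not called, and at -0.70 and -0.42 with spike-in size factors.

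Complex IV also has isoforms made for particular tissues, and oocytes carry a few of them. Cox6a2, the heart and muscle form, was called lower in MII (5.93, 6.79 and 10.7 CPM to 2.02, 3.56 and 5.66 CPM, log2 -1.05, edgeR adjusted p 0.018), a call that was not made with HTSeq counts, in the fit of all 37 oocytes, or without GV oocyte 4, MII oocyte 4 or MII oocyte 6 (log2 -0.94 to -0.92). Its level per length was 0.0755 times that of Cox6a1 in the median GV oocyte of batch A and 0.0607 times in MII. Cox6b2, the testis form, was nearer to Cox6b1: the ratio per length was 0.334 to 0.653 in GV oocytes of batch A and 0.419 to 0.777 in MII oocytes. In batch B the same ratio was 0.0092 to 0.0953 in GV oocytes and 0 to 0.207 in MI oocytes. The GV oocytes of the 2 batches therefore do not overlap in this ratio, which needs no scaling between oocytes. The labels do not say what differs between the batches. Cox6b2 itself was not called between GV and MII (log2 -0.03, and -0.85 with spike-in size factors). Cox4i2 was at 0.0131 times Cox4i1 in the median GV oocyte of batch A and at 0 in the median oocyte of both groups of batch B.

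Complex V, the ATP synthase, has a catalytic F1 head, a rotating c-ring in the membrane, and a peripheral stalk that keeps the head from turning with the ring. Its summed CPM had a median of 1065 in GV oocytes (950 to 1391) and 794 in MII oocytes (685 to 866). Of 5 F1 subunits 0 were called by edgeR, by DESeq2 or on HTSeq counts, with 1 lower and 1 higher at an unadjusted p under 0.05 and a median log2 of -0.20, which becomes 0.07 with HTSeq counts and -0.88 with spike-ins. Of 4 peripheral stalk subunits 4 were called lower, with a median of -1.66 (-1.27 with HTSeq counts, -2.42 with spike-ins). Of 4 other membrane subunits 3 were called (median -1.08), or 1 with HTSeq counts (-0.78). Of 3 genes for the c subunit 1 was called (median -0.87), again 1 with HTSeq counts (-0.52), and 0 in the fit of all 37 oocytes (-0.81). These are counts by role, and no difference between roles was tested.

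The peripheral stalk is made of Atp5f1, Atp5h, Atp5j and Atp5o. Atp5h (ENSMUSG00000034566.10, chr11:115415689-115419962) read 58.6, 80.9 and 103 CPM in GV oocytes and 17.0, 24.0 and 30.1 CPM in MII oocytes. The groups are far apart, the log2 change was -1.79 ± 0.18 (edgeR, adjusted p 1.05e-05), and 19 of 19 alternatives called it with log2 between -2.52 and -1.48. Atp5o, which joins the stalk to the head, read 64.4, 76.1 and 101 CPM in GV oocytes and 16.5, 22.2 and 36.8 CPM in MII oocytes. Its groups do not overlap either (log2 -1.73 ± 0.22, edgeR adjusted p 7.52e-05). The HTSeq count of this gene was 0.490 times the RSEM count, and the annotation holds a second overlapping Atp5o entry, so its level is uncertain. On HTSeq counts the change was -1.07. Atp5f1 went from a median of 60.8 to 24.4 CPM (log2 -1.23) and Atp5j from 21.5 to 6.82 CPM (log2 -1.60), each with a small overlap between the groups.

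In the F1 head, where no member was called, spike-in size factors called 1 of 5 lower, against 29.3% of all genes. With them all 5 lay below zero, against 93.7% of all genes. Atp5b, the catalytic β subunit, read 144, 187 and 222 CPM in GV oocytes and 223, 235 and 298 CPM in MII oocytes. Every MII oocyte lay above every GV oocyte, by a narrow margin, and the test missed its threshold (log2 0.38 ± 0.13, edgeR adjusted p 0.053). Over the alternatives the adjusted p ran from 0.028 to 0.251 and the log2 change from -0.31, with spike-ins, to 0.44. Atp5a1, the α subunit, read 148, 204 and 254 CPM and then 147, 177 and 198 CPM (log2 -0.23, not called). Atp5c1, the central γ shaft, lay at 0.07 (and at -0.64 with spike-ins), Atp5d at -0.20 (and at 0.07 with HTSeq counts), and Atp5e at -0.76 (edgeR, adjusted p 0.021), or -0.27 with HTSeq counts (edgeR, adjusted p 0.429).

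Ratios per length set subunits of the complex side by side. Atp5b to Atp5h was 0.661 to 1.11 in GV oocytes of batch A (median 0.959) and 3.04 to 6.03 in MII oocytes (median 3.93). In batch B the GV oocytes had 0.664 to 1.61 (median 1.16), and the MI oocytes 0.372 to 1.76 (median 0.975). Atp5a1 to Atp5o went the same way, from 0.520 to 1.18 in GV oocytes of batch A to 1.37 to 4.02 in MII oocytes. Both ratios overlap between GV and MI in batch B.

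The c subunit comes from Atp5g1, Atp5g2 and Atp5g3, whose mature proteins are identical. Atp5g2 was called lower in MII (29.9, 51.7 and 73.7 CPM to 11.8, 17.4 and 22.1 CPM, without overlap, log2 -1.61 ± 0.23, edgeR adjusted p 0.000185). In the fit of all 37 oocytes it was not called, at a change of similar size (log2 -1.55). Atp5g1 was not called (53.0, 68.9 and 108 CPM to 36.9, 56.9 and 80.1 CPM, log2 -0.35, edgeR adjusted p 0.247), and Atp5g3 was low and not called (log2 -0.87). The remaining members called were Atp5j2, Atp5k and Atp5l, small subunits of the membrane part (log2 -1.33, -1.15 and -1.01). HTSeq counts did not call Atp5j2 (-0.94) or Atp5k (-0.62, edgeR adjusted p 0.077). Atp5l lay close to 2-fold and was called in 6 of 12 fits that left out 1 oocyte: without GV oocyte 1, 4 or 5, or MII oocyte 1, 4 or 5, its log2 was -0.98 to -0.92 and it was not called, nor was it in the fit of all 37 oocytes (-0.95). For Atp5l the HTSeq count was 0.314 times the RSEM count, and the annotation holds near copies of it, so its level is uncertain. Atp5s, a coupling factor, was among the least abundant members per length in GV oocytes of batch A (given below).

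**Figure D2:**
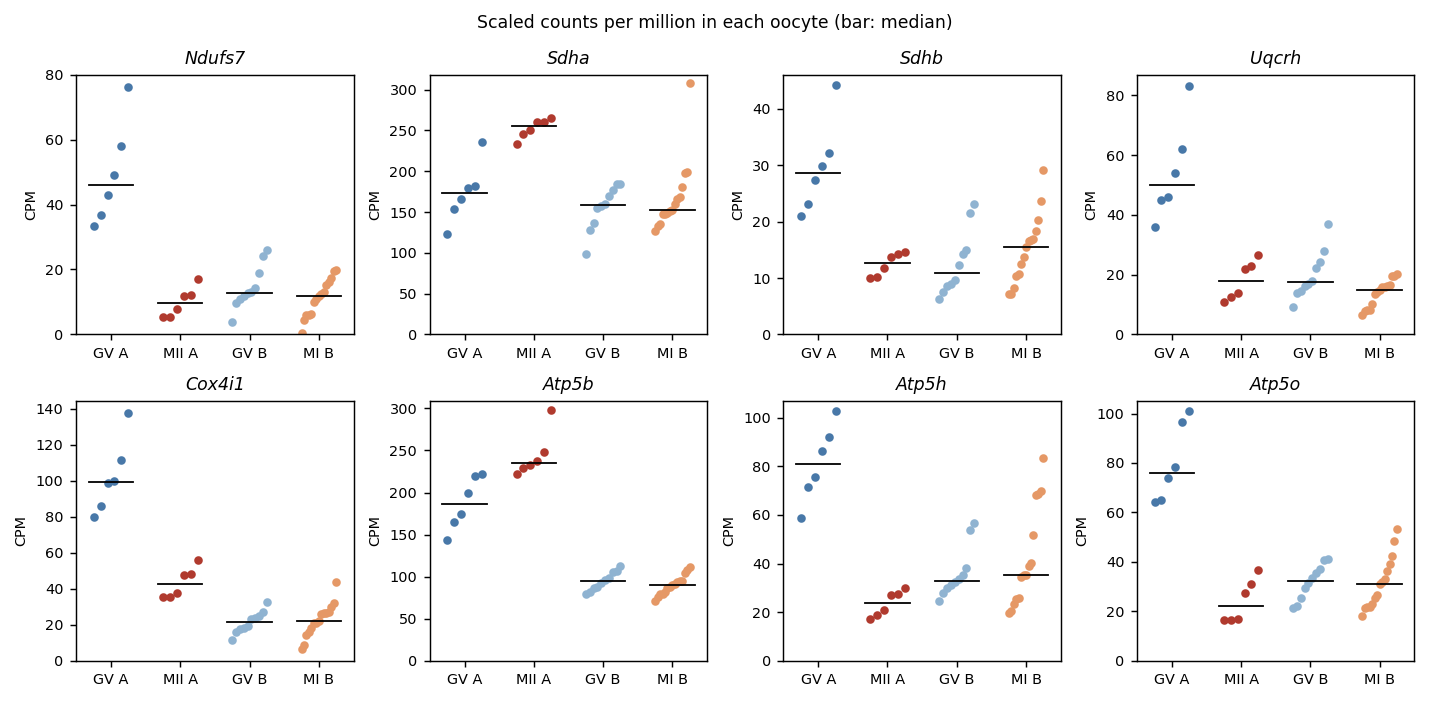
Scaled CPM of 8 members in each oocyte of the 4 groups (points from lowest to highest, with the median as a bar), on a linear axis from 0 for each gene. For Ndufs7, Sdhb, Uqcrh, Cox4i1, Atp5h and Atp5o every MII oocyte is below every GV oocyte of batch A, whereas Atp5b is higher without overlap and Sdha overlaps; with spike-in size factors the changes of Atp5b and Sdha are -0.31 and -0.17.

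Levels between genes can be set side by side only per length, in TPM (mean and SD over oocytes). In GV oocytes of batch A the highest members were Atp5e (413 ± 68.5), the F1 ε subunit, Cox5a (344 ± 46.0), Cox6a1 (290 ± 67.0) and Cox4i1 (271 ± 41.6). The neighbours in this order from Cox6a1 down to Cox7c (254 ± 89.2) do not differ beyond their spread. The lowest members to pass the filter were Atp5s (2.96 ± 1.20), Ndufa4l2 (3.25 ± 0.752), Cox4i2 (3.68 ± 2.21) and Uqcrc1 (6.42 ± 2.93). In MII oocytes Atp5b (254 ± 26.5) and Cox8a (246 ± 87.9) stood at the top, and Atp5e was at 209 ± 80.1. The median member of complex V went from 145 in GV to 52.2 in MII oocytes, and that of complex IV from 167 to 82.2. In batch B, Cox5a was highest in GV oocytes (212 ± 50.4) and Atp5g1 in MI oocytes (294 ± 157).

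Between GV and MI, edgeR called 0 of 78 members lower, against 0.0322% of all 12419 genes tested, and 0 higher, against 0.0886%. DESeq2 and edgeR on HTSeq counts also called 0, as did edgeR without MI oocytes 4, 8 and 9 (13 lower and 2 higher at an unadjusted p under 0.05). With all oocytes, at an unadjusted p under 0.05, 16 members were lower, against 4.77% of all genes, and 1 was higher, against 6.26%. Groups without overlap were found for 0 members and for 0 genes of all those tested (0%). The median log2 change of the members was -0.24, and that of all genes was 0.02, with 59 members below zero and 19 above. By complex the medians were -0.29, 0.07, -0.23, -0.34 and -0.14 from I to V. The summed CPM of all members ran from 1347 to 2486 in GV oocytes (median 1712) and from 1241 to 2370 in MI oocytes (median 1668). Batch B holds no spike-ins, so only shares of the counted RNA are available there.

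The smallest adjusted p among the members in batch B was that of Cox7c, at 16.1, 22.7 and 39.8 CPM in GV oocytes and 5.06, 16.6 and 21.8 CPM in MI oocytes (log2 -0.69, edgeR adjusted p 0.146, and 0.048 to 0.501 over the alternatives). The largest decreases of each complex were Ndufc1 (-0.93), Sdhc (-0.24), Uqcrh (-0.53), Cox7a2 (-0.73) and Atp5s (-0.70). The largest increases were Ndufv1 (0.34), Sdhb (0.25), Uqcrc1 (0.25), Cox7a2l (0.24) and Atp5g1 (0.82), none of them called. For Ndufv1 that value rests on few oocytes, since MI oocytes read 4.35, 12.3 and 143 CPM. Over the alternatives the direction turned for Ndufv1 (-0.53 to 0.55) and Uqcrc1 (-0.11 to 0.57). The changes of Sdhb, Cox7a2l and Atp5g1 stayed above zero. Atp5g1 read 24.6, 60.3 and 137 CPM in GV oocytes and 37.9, 101 and 282 CPM in MI oocytes, with wide overlap (edgeR, adjusted p 0.210, and 0.062 to 0.679 over the alternatives).

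Whether a member changed differently on the way to MII than on the way to MI was tested in a fit of all 37 oocytes. Of 80 members tested, 11 had a lower change to MII than to MI by adjusted p and more than 2-fold, against 2.02% of all 15083 genes, and 0 had a higher one, against 2.01%. At any size the counts were 11, against 2.36%, and 1, against 3.1%. The members were Ndufa9, Ndufb10 and Ndufs7 of complex I, Sdhb, Uqcrb, Cox4i1 and Cox7c, and Atp5h, Atp5j2, Atp5l and Atp5o of complex V. The median difference was -0.35 for the members and 0.04 for all genes. Without MII oocyte 1 the count was 7, and with HTSeq counts and without MI oocytes 4, 8 and 9 it was 3. Without those MI oocytes and with RSEM counts, an alternative chosen after seeing the data, it was 10, all among the 11. Over 5 alternatives Ndufa9, Ndufb10 and Atp5h were called in 5, Sdhb, Uqcrb, Atp5j2 and Atp5o in 4, Ndufs7, Cox4i1 and Atp5l in 3 and Cox7c in 1. Stage, batch, and maturation in the animal or in culture cannot be told apart in this contrast.

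Atp5h carried the difference most firmly. In batch B it read 24.7, 33.0 and 56.7 CPM in GV oocytes and 19.6, 35.5 and 83.3 CPM in MI oocytes, with MI on both sides of GV. The MI change was 0.23 and the MII change -1.79, and the difference of -1.93 was called in 5 of 5 alternatives (edgeR, adjusted p 0.000534, and 5.80e-06 to 0.0051 over them). For Atp5o the difference was -1.63 (edgeR, adjusted p 0.000579, and 6.83e-05 to 0.055 over 5 alternatives, of which 4 called it). Atp5b was the single member with a higher change to MII, below 2-fold (0.53, edgeR adjusted p 0.044, and 0.046 to 0.269 over the alternatives).

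The deposited tables also hold expected counts per transcript. Of 376 member transcripts 131, from 79 genes, passed the filter in batch A. Called lower in MII were 30, against 4.23% of 22461 transcripts tested, and called higher were 3, against 1.35%. The 33 transcripts belong to 31 genes, of which 23 were called as genes and 8 were not. Those 8 include genes whose transcripts moved apart. RSEM divides reads among transcripts that share most of their sequence, so a transcript's count carries more uncertainty than its gene's.

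The clearest of these is Atp5g1, which was not called as a gene. Its transcript Atp5g1-201, with an annotated 3′ UTR of 4255 bases, read 3.50, 5.26 and 8.10 CPM in GV oocytes and 10.9, 18.6 and 23.2 CPM in MII oocytes. The groups do not overlap, and the log2 change was 1.71 ± 0.26 (edgeR, adjusted p 0.0015). Atp5g1-202, with a 3′ UTR of 117 bases, went from 40.2, 53.0 and 80.9 CPM to 18.2, 29.6 and 43.2 CPM (log2 -0.93 ± 0.23, edgeR adjusted p 0.022), with a small overlap. As a share of the gene's counts, the long transcript held 6.43% to 9.32% in GV oocytes of batch A and 29.3% to 35.9% in MII oocytes. In batch B it held 7.72% to 18.5% in GV oocytes and 8.19% to 27.1% in MI oocytes, with overlap.

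Ndufa9 has the same layout on a smaller scale. Ndufa9-201, with a 3′ UTR of 26 bases, went from 12.0, 28.4 and 33.5 CPM to 0, 0.909 and 3.94 CPM (log2 -4.14 ± 0.94, edgeR adjusted p 0.015), while Ndufa9-203, with 301 bases, went from a median of 39.7 to 26.3 CPM (log2 -0.55, edgeR adjusted p 0.099). The longer one held 45.1% to 81.9% of the gene's counts in GV oocytes of batch A and 84.2% to 100% in MII oocytes. Uqcrq, a ubiquinone-binding subunit of complex III, was not called as a gene. Its transcript with a UTR of 106 bases went from 27.6 to 9.28 CPM at the median (log2 -1.54, edgeR adjusted p 0.0019), and the one with 1137 bases from 19.3 to 21.4 CPM (log2 -0.05). Ndufv2, a core subunit of complex I, had -1.10 for the transcript with 56 bases and -0.09 for that with 859. Cox5b had -1.25 for the transcript with 232 bases and -0.29 for that with 375. Ndufa12 had -1.37 for the transcript with 90 bases, and 0.69, without a call, for one with 585 bases, which held 6.10% of the gene's counts in the median GV oocyte of batch A and 21.9% in the median MII oocyte. Ndufa11, an accessory subunit, had -1.37 for the transcript with 43 bases and -0.21 for one with 208, which ends 4 bases after it. The latter held 3.03% of the gene's counts in the median GV oocyte of batch A and 7.96% in the median MII oocyte. In batch A the share of the longer transcript did not overlap between GV and MII for Uqcrq, Ndufv2 and Cox5b, and it overlapped for Ndufa11 and Ndufa12. These genes were chosen by the changes of their transcripts in batch A, so the shares there describe the same difference and do not add to it.

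**Figure D3:**
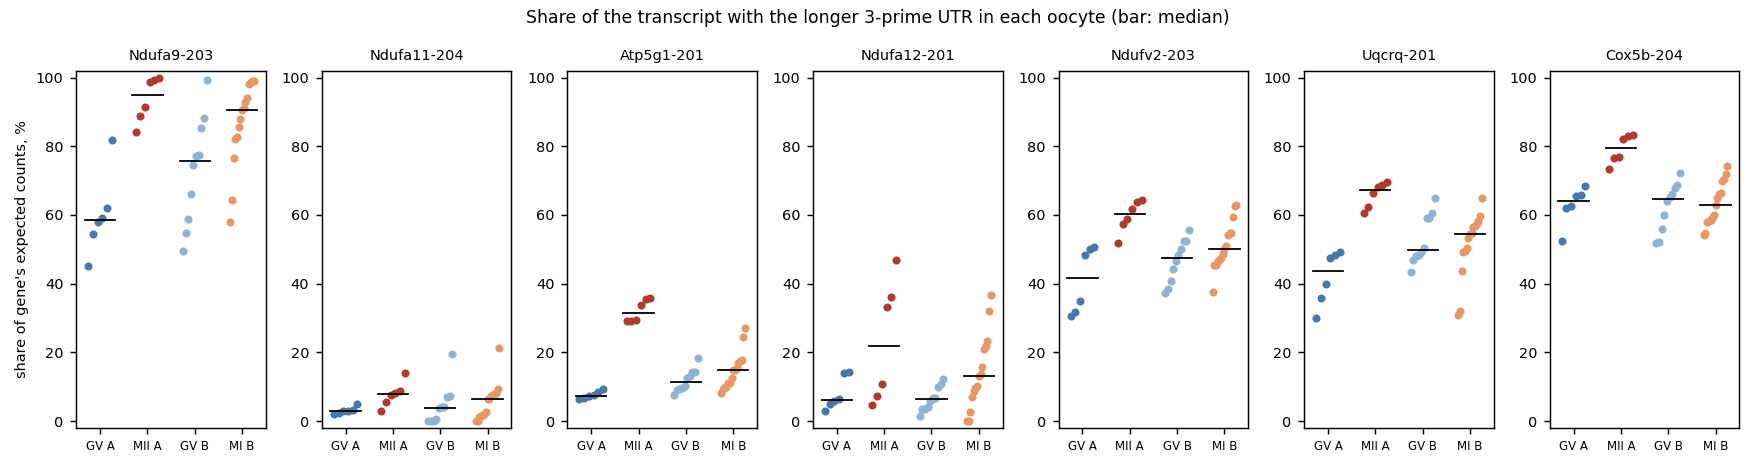
Share of a gene's expected counts held by its coding transcript with the longer 3′ UTR, in percent, in each oocyte of the 4 groups (points from lowest to highest, with the median as a bar), for the 7 genes whose shorter form had an adjusted p under 0.05 and the lower change. The genes were chosen by this difference in batch A, so a higher share in its MII oocytes is expected (the groups of batch A overlap for Ndufa11 and Ndufa12). In batch B the groups overlap for all 7. The forms of Ndufa11 end 4 bases apart.

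To count this without choosing pairs by eye, the coding transcripts with the shortest and the longest 3′ UTR were compared in each gene where both were tested and the lengths differed by at least 100 bases, a comparison set up after values of single transcripts had been seen. Among 13 members the longer transcript had the higher log2 change in 11, with a median difference of 1.15. Among all 2276 such genes it did in 1333 (58.6%), with a median difference of 0.16. Where the longer form also ended at least 100 bases later, a limit added after seeing the data that drops Ndufa11, the counts were 10 of 12 members and 1135 of 1912 genes (59.4%). The exceptions among the members were Sdha, with a difference of -0.08, and Ndufs4, with -1.44, where the short transcript was rare and not called. Among the 11, the short transcripts of Ndufb5, Ndufb2, Sdhc and Ndufs1 were not called either (edgeR, adjusted p 0.080, 0.273, 0.056 and 0.685). The differences of Sdhc and Ndufs1 were small, at 0.13 and 0.07.

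The other transcripts called higher were Cox6c-204, annotated for nonsense-mediated decay (0, 0.161 and 0.318 CPM to 1.75, 2.10 and 3.27 CPM), and Ndufa3-201 (0.388, 1.79 and 4.10 CPM to 4.91, 5.84 and 6.75 CPM). Both rest on low counts. Most transcripts called lower are the main coding transcript of a gene that was itself called, with Atp5h-201, Atp5o-201, Cox4i1-201, Atp5g2-202, Atp5j2-202, Cox7c-203 and Sdhb-201 among the smallest adjusted p.

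Of the 7 genes whose long forms the figure shows, the shorter form had a poly(A) signal (AATAAA or ATTAAA) in its last 30 bases in 4, and the longer form in 5. The last 30 bases are given for 3 genes, chosen after they were seen (GENCODE M21 transcripts, GRCm38, written 5′ to 3′ on the gene's strand). Capitals mark the signal, searched on the RNA strand. Each pair is the shorter and then the longer form: Ndufv2 at chr17:66079441-66079470 and chr17:66078638-66078667 (minus strand), Ndufa12 at chr10:94220919-94220948 and chr10:94221414-94221443 (plus strand), and Atp5g1 at chr11:96072990-96073019 and chr11:96068852-96068881 (minus strand). The window of Atp5g1-202 holds neither signal, and ATTAAA lies just before it, within the last 40 bases.
Ndufv2-201: tcactggacaAATAAAatatgaacttccct
Ndufv2-203: ttgtatgAATAAAacattaccttcaactca
Ndufa12-204: accatgaacttgATTAAAattgtttgacct
Ndufa12-201: gctggtATTAAAaggtgtccactaaaacca
Atp5g1-202: acaacaacaacaacaacaacaacgtttctc
Atp5g1-201: ataAATAAAttttttaaaaaagctttaaaa

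Short 3′ UTRs are common among the members. For the transcript with the most counts, the median annotated 3′ UTR was 156 bases in 77 members with a value, against 957 bases in 10803 protein_coding genes tested. It was 127 bases in the members called lower between GV and MII and 185 bases in those not called. In all 644 genes called lower with a value it was 267 bases. Under 200 bases were 48 members (62.3%), against 12.7% of all genes tested. Among those called lower the shares were 76% of members and 41.0% of all genes. All genes tested with a UTR under 200 bases had a median log2 change of -0.36, and those with longer ones 0.07. The members had -0.83 under 200 bases and -0.58 from 200 bases up. The members thus lie lower than all genes in either length class, and the part of UTR length in their change was not tested.

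The letters TTTTAT or TTTTAAT, the core of the cytoplasmic polyadenylation element, were in the last 100 bases of 6 members (7.79%), against 19.7% of all genes tested. The 6 are Ndufa2, Ndufc2, Ndufs4, Cox5a, Cox6a2 and Atp5s, of which Ndufa2, Ndufc2 and Cox6a2 were called lower. Those letters were in 12% of the members called lower and in 9.32% of all genes called lower. AATAAA was in the last 40 bases of 63.6% of the members and 61.5% of all genes. These are matches of letters in annotated ends, not sites shown to act.

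Promoters from RefSeq (GRCm38.p6, from 250 bases before the start to 50 after it) were found for 68 of 85 members by gene ID. The letters TGCGCA, the core of the NRF1 site and the same on both strands, were in 18 (26.5%), against 8.06% of 27025 promoters and 15.2% of 8984 promoters of protein_coding genes tested in batch A. CCGGAAG or its reverse CTTCCGG, an ETS core, was in 15 (22.1%), against 9.12% and 18.9%. AAGATGG or its reverse CCATCTT, a YY1 core, was in 10 (14.7%), against 6.48% and 7.64%. A promoter counts under each motif that it holds. At least 1 of the 3 was in 15 of 21 members called lower (71.4%), in 20 of 44 members tested and not called (45.5%) and in 36.0% of promoters of genes tested. This is a count of matches in a part of the members, with no test. Windows of 30 bases from 6 members called lower show a match in capitals: Ndufs7 (chr10:80249461-80249490, plus strand), Atp5j2 (chr5:145191501-145191530, minus strand), Atp5h (chr11:115419940-115419969, minus strand), Uqcrh (chr4:116075063-116075092, minus strand), Ndufb10 (chr17:24724409-24724438, minus strand) and Uqcrc1 (chr9:108936665-108936694, plus strand), where TGCGCA follows again in lower case.
Ndufs7: aaggccgaggccAAGATGGcggcgctggcg
Atp5j2: caccaggacttcAAGATGGcgtcactcggt
Atp5h: ccaaggagagaaCTTCCGGcaactctcttc
Uqcrh: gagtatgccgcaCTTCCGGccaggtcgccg
Ndufb10: ctgtcacctttcTGCGCAggcgtagaggtc
Uqcrc1: cagactccgctcTGCGCAtgcgcagcgcgg

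A list of 12 regulators holds factors that bind such motifs, Esrra, coactivators, and the transcription machinery of the mitochondrial genome; 9 of them could be tested in each batch. None was called by edgeR in batch A or batch B, with 4 lower and 1 higher at an unadjusted p under 0.05 in batch A and 0 lower and 1 higher in batch B. DESeq2 and edgeR on HTSeq counts called 0 as well. Nrf1 had the most counts among the regulators, at means of 98.5 CPM in GV and 110 CPM in MII oocytes. Tfb2m, a transcription factor of the mitochondrial genome, was higher in MII below 2-fold (log2 0.71, edgeR adjusted p 0.027). Tfam, Polrmt and Tfb1m, of the same machinery, lay below zero without a call (log2 -0.86, -0.57 and -0.39, edgeR adjusted p 0.0502, 0.095 and 0.141).

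The subunits encoded by the mitochondrial genome moved the other way in batch A. Of 13, 12 were called higher in MII, against 2.15% of all genes, and 0 lower, against 6.32%. The 13 had a median log2 of 1.28. Their summed CPM went from 3794 to 6390 in GV oocytes to 7901 to 15811 in MII oocytes, without overlap. With RLE size factors 12 were called higher, with DESeq2 11, with HTSeq counts 13 and in the fit of all 37 oocytes 8. Of all genes, these fits called higher 283 and 281 of 12929, 101 of 13409 and 227 of 15083, in the same order. With spike-in size factors 0 were called, and the 13 changes lay between 0.10 and 1.20. The one with the most counts, mt-Cytb, went from 1051 ± 290 to 2740 ± 783 CPM (mean and SD, log2 1.38, edgeR adjusted p 0.00043). In batch B none of 12 tested was called by edgeR (4 lower and 0 higher at an unadjusted p under 0.05), by DESeq2 or on HTSeq counts, and the median log2 was -0.42. So between GV and MII the medians of the nuclear and the mitochondrial subunits lie on opposite sides of the median gene. With spike-in size factors the median of the 13 was 0.61.

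Subunits and carriers outside the naming rule are Ndufab1, Cyc1, Cycs and Cyct. None was called by edgeR, by DESeq2 or on HTSeq counts in either batch. Cycs, somatic cytochrome c, was lower in MII below 2-fold (72.0 ± 21.6 to 42.3 ± 16.3 CPM, log2 -0.77, edgeR adjusted p 0.039), the single one of the 4 with an unadjusted p under 0.05 in batch A. In batch B 0 had one by edgeR and 1 by DESeq2.

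Of 46 assembly factors 41 were tested in batch A, with 7 called lower, against 6.32% of all genes, 1 higher, against 2.15%, and a median log2 of -0.41. By complex, those called lower were 1 of 13 for complex I (and 1 higher), 0 of 4 for II, 1 of 5 for III, 5 of 16 for IV and 0 of 3 for V. Uqcc2, which is needed to build complex III, went from 17.3 ± 4.60 to 3.17 ± 0.692 CPM (log2 -2.44, edgeR adjusted p 1.05e-05). Sco2, a copper chaperone of complex IV, went from 5.90 ± 1.89 to 1.39 ± 0.398 CPM (log2 -2.08, edgeR adjusted p 0.000312). HTSeq counts called Uqcc2, and for complex IV 3 of 15 (Coa7, Pet100 and Cox16), without Sco2 and Cox17. The one called higher, Acad9, a complex I assembly factor, had an SD above its mean in MII (23.7 ± 30.3 CPM) and overlapping groups, and HTSeq counts did not call it. In batch B 0 of 39 were called by edgeR, and 0 by DESeq2 or on HTSeq counts, with 1 lower and 1 higher at an unadjusted p under 0.05 and a median of -0.11.

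Several limits hold for these values. Smart-seq2 primes on poly(A) tails, and tail length was not measured. The strand setting of the authors' counting is not stated, and exons of 26 of the 80 members tested overlap a gene on the opposite strand, among them 11 of the 26 called (such as Cox4i1, Uqcrb and Ndufa9). Batch B has no spike-ins, and culture, batch and stage differ together between MI and MII. RNA levels say nothing here of protein, and no protein was measured.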

How the data were processed

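Single oocytes of batch A (6 GV, 6 MII) and batch B (10 GV, 15 MI) were sequenced by Smart-seq2. The authors trimmed reads with Trim Galore 0.6.4 and mapped them to mm10 with GENCODE VM20 and ERCC sequences. They deposited HTSeq 0.12.4 counts per gene (STAR 2.7.6a alignments) and RSEM 1.3.1 expected counts per gene and per transcript, none of them normalized. From these, rounded expected counts went into edgeR 4.0.16 in R 4.3.3 (TMM, filterByExpr with a minimum count of 10, glmQLFTest, Benjamini-Hochberg adjustment over all features tested). DESeq2 1.42.0, RLE, HTSeq counts, spike-in size factors, no filter, a joint fit, a replicate block and leaving out oocytes were the alternatives. Tests were run on simulated counts first. CPM are TMM-scaled within a batch. Levels per length (TPM) are expected counts divided by transcript length and scaled to a sum of 1000000. Annotation came from GENCODE M21, with members matched by gene ID without version, and promoters from RefSeq.

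Named members are those called (up to 8 per complex), the extremes of each complex in level and change, the Sdh genes, isoform pairs, Ndufa8, members failing the filter, and up to 10 transcripts. Other members named in the text were chosen after their values were seen. Lists cover oocyte, cumulus and blood markers, mitochondrial genome subunits, subunits outside the rule, assembly factors and regulators. The results of 1 further member and 1 further transcript end are not reported here. The members and lists were chosen with earlier results of these data known.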

Additional observations from a re-analysis of the deposited data

Results flagged for a closer look

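In 150 groups of up to 10 oocytes, over the summed CPM of the complexes and the members named, 7 had 1 oocyte far from the others, and chance alone gives about 1 in 20. In GV oocyte 7 of batch B the summed CPM of complex IV was 484, with the next oocyte at 355, and the same oocyte was the highest for Atp5j2 (69.6, next 48.8), Cox7a2l (58.9, next 40.8) and Ndufc2 (40.7, next 17.8). In GV oocyte 3 of batch B, Atp5g3 read 3.24 CPM (next 2.06), and in GV oocyte 4 Uqcrb read 19.7 CPM (next 12.8). In MII oocyte 4, Atp5b read 298 CPM (next 248). The median log2 change of the members in batch B, -0.24, was -0.16 without GV oocyte 7, -0.19 without GV oocyte 4 and -0.29 without GV oocyte 3. Without MII oocyte 4 the members called in batch A went from 26 to 19, the median log2 change of all members tested from -0.69 to -0.62, and the change of Atp5b from 0.38 to 0.32. The cause was not tested.

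The change from GV to MII differed from the change from GV to MI, by a test of the difference, for 11 members: Ndufa9 (log2 -1.25), Ndufb10 (-1.19), Ndufs7 (-1.90), Sdhb (-1.42), Uqcrb (-1.79), Cox4i1 (-1.25), Cox7c (-1.10), Atp5h (-1.93), Atp5j2 (-1.12), Atp5l (-1.37) and Atp5o (-1.63). In each of them the MII change is the lower one. Over 5 alternatives Cox7c was called in 1, Ndufs7, Cox4i1 and Atp5l in 3, and the others in 4 or 5.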

How the results depend on the processing

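Between GV and MII, 26 members were called. No filter, RLE, DESeq2, HTSeq counts and a fit of all 37 oocytes gave 18 to 28, all of them lower, and leaving out 1 oocyte gave 19 (without MII oocyte 4) to 33 (without MII oocyte 2). Of the 26, 18 were called with HTSeq counts and the same number in the fit of all oocytes. Spike-in size factors gave 64, and leaving the fold aside gave 40. The median log2 change of the members, -0.69, was -1.42 with spike-ins, which shift all genes, and ran from -0.84 to -0.61 when 1 oocyte was left out. No filter, RLE, DESeq2, HTSeq counts and the fit of all oocytes gave -0.71 to -0.58.

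Between GV and MI, 0 members were called under every alternative, and from 0 to 0 when 1 of 25 oocytes was left out. The median of -0.24 ran from -0.29 to -0.16 without 1 oocyte, and was -0.24 without MI oocytes 4, 8 and 9, -0.29 with HTSeq counts and -0.19 with both changes.

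The 11 members with a different MII and MI change became 13 without the filter and 10 with RLE. They became 3 with HTSeq counts and without MI oocytes 4, 8 and 9, and 7 without MII oocyte 1. Without these MI oocytes but with RSEM counts they became 10; this fit was chosen once the data had been seen. All of the 10, the 7 and the 3 are among the 11, and the causes of the drops to 7 and 3 were not tested. At any size the count is 12.

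Of 33 member transcripts called, RLE gave 33, DESeq2 39, no filter 31, and leaving out 1 oocyte 28 to 39.

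The labels number the oocytes from 1 in each group. Deviations of same-numbered oocytes correlated between -0.327 and 0.341 in batch A and between -0.146 and 0.107 in batch B. With no values of differently numbered oocytes beside them, these do not settle whether the numbers pair oocytes. With the number as a replicate block, 26 members were called in batch A (median -0.73) and 0 in batch B (median -0.34), and 14 member transcripts were called, all of them among the 33.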
